A study of Rattus norvegicus with 44 samples.

Results

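The 11 kidney cortex libraries of newborn male rats (postnatal day 0, PND0) were compared by their own level of Xdh, whatever the genotype in the label. They are 11 of the 44 libraries of a series that covers PND0, 5, 15 and 21 in rats whose Xdh genotype is labelled WT (wild type), Het (heterozygous) or Homo (homozygous), 1 library of poly-A RNA per animal. At PND0 the labels give 4 WT, 3 Het and 4 Homo animals. The sides were chosen by the measured Xdh level itself. The high side holds the 3 libraries with Xdh above 10 FPKM (reads scaled to gene length and sequencing depth), and the low side holds the 8 libraries below 5 FPKM. The high side consists of Homo replicate 3, Homo replicate 4 and Het replicate 2. The low side consists of the 4 WT libraries, Het replicates 1 and 3 and Homo replicates 1 and 2. The labels do not say which change the Xdh allele carries, and they name no treatment for any group. Whole litters were collected, and the labels do not say which pups shared a litter.

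Xdh encodes xanthine dehydrogenase, the molybdenum enzyme that oxidises hypoxanthine to xanthine and xanthine to urate at the end of purine breakdown. The other genes given as markers of the high side, Fkbp5, Tsc22d3, Per1 and Zbtb16, are textbook targets of the glucocorticoid receptor. This receptor binds corticosterone in rats and then enters the nucleus and binds DNA. In the perinatal kidney, glucocorticoids are known for their part in the maturation of tubular transport and in gluconeogenesis.

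Since Xdh chose the sides, every gene of the comparison at PND0 is given as a description without a test. Of 14676 genes with at least 1 FPKM in 3 or more of the 11 libraries, 1042 (7.1%) were higher and 1205 (8.21%) were lower in the high side without any overlap between the sides. A gene is called apart here when the sides did not overlap and their mean log2(FPKM + 1) differed by at least 1. There were 120 such genes higher (0.818%) and 38 lower (0.259%), Xdh among the former. The median difference over all 14676 genes was -0.01. Of the 158 genes, 112 of those higher and 37 of those lower are protein coding. Of the libraries left out in turn, Homo replicate 3, the high-side library with the least Xdh, moved the counts most. Without it, 206 genes were higher and 70 lower.

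Xdh (ENSRNOG00000007081, chromosome 6, minus strand, 25149235 to 25211494 in the coordinates of the deposited table) was at 11.7 FPKM in Homo replicate 3, 22.5 in Homo replicate 4 and 26.8 in Het replicate 2. In the low side it was at 2.29, 3.69, 3.78 and 1.60 FPKM in WT replicates 1 to 4, at 1.87 and 1.75 in Het replicates 1 and 3, and at 0.727 and 0.649 in Homo replicates 1 and 2. The gap between the sides thus ran from 3.78 FPKM in WT replicate 3 to 11.7 FPKM in Homo replicate 3. Both high libraries labelled Homo held more Xdh than every WT library of the same age, and both low libraries labelled Homo held less. The Homo libraries thus lay on both sides of the WT range. In WT libraries of later ages Xdh was 4.18 ± 0.627 FPKM at PND5 (SD, n = 3). It was 15.7 ± 1.88 FPKM at PND15 (n = 4) and reached 24.2 ± 1.68 FPKM in the 3 libraries of PND21, so the 3 high newborn libraries lay in the range that spans PND5 to just above PND21.

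Because Xdh sets the sides, the start of its gene is shown, as the RefSeq promoter window of build GRCr8, chr6:27282069-27282368, plus strand of that build, from 250 bases before to 50 after the gene start. No base is in capitals, since none of the 5 motifs searched below matched in this window.
Xdh: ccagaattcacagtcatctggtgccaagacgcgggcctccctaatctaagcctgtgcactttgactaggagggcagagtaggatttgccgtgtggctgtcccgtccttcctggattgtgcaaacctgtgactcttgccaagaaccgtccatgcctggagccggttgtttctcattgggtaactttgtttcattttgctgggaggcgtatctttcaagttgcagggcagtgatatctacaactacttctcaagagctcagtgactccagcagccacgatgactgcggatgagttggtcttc

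The markers of glucocorticoid action were higher in the 3 high libraries, and 1 low library, WT replicate 3, came near them. Fkbp5, a co-chaperone of the glucocorticoid receptor, was at 49.8, 99.8 and 63.9 FPKM in Homo replicate 3, Homo replicate 4 and Het replicate 2. In the low side Fkbp5 was at 14.0, 16.5, 29.3 and 16.8 FPKM in WT replicates 1 to 4, 13.0 and 15.9 in the Het libraries and 12.6 and 14.3 in the Homo libraries. The sides did not overlap, and Fkbp5 differed by 2.03 on the log2 scale. Tsc22d3, which encodes the leucine zipper protein GILZ, was at 91.7, 147 and 103 FPKM in the high libraries in the same order. In the low side it was at 32.3, 28.4, 57.1 and 37.1 FPKM in WT replicates 1 to 4, 36.1 and 28.5 in the Het libraries and 33.1 and 33.7 in the Homo libraries. Again WT replicate 3 was the highest of the low side, and Tsc22d3 differed by 1.65 on the log2 scale.

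Zbtb16 (PLZF), a zinc finger transcription factor, had the largest difference among the genes named, 3.09 on the log2(FPKM + 1) scale. It was at 10.1, 16.2 and 10.5 FPKM in Homo replicate 3, Homo replicate 4 and Het replicate 2, at 6.58 in WT replicate 3, and between 0.0519 and 0.473 in the other 7 low libraries. Per1, a core repressor of the circadian clock, was at 39.5, 53.3 and 41.9 FPKM in the same high libraries. It was at 39.7 FPKM in WT replicate 3 and between 6.43 and 9.66 in the other 7 low libraries. For Per1 the sides therefore overlapped, through WT replicate 3 alone. This library was the highest of the low side for 52 of the 120 higher genes (43.3%), against 24.0% of all genes compared.

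**Figure D1:**
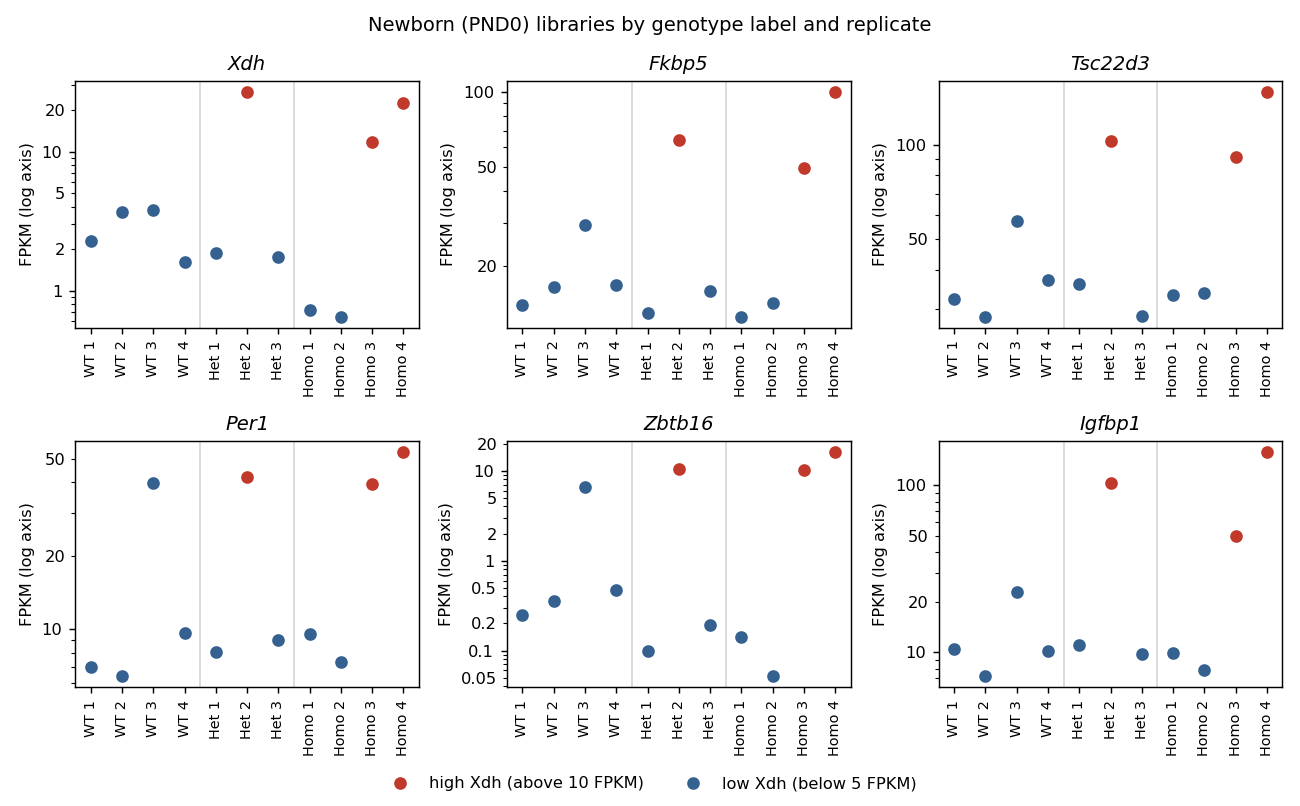
FPKM (log axis) of Xdh, the 4 other markers and Igfbp1 in each of the 11 newborn libraries; each point is 1 library, red for the high side and blue for the low side. The 3 red points lie above all blue points in every panel except Per1, where WT replicate 3 (39.7 FPKM) lies above Homo replicate 3 (39.5 FPKM).

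Of the 36 genes in a list of glucocorticoid targets, 33 were compared. Of these, 17 were higher without overlap and 1 was lower, where 7.1% of all genes were higher and 8.21% lower. The median difference was 1.06, against -0.01 for all genes. The list was written with earlier results of these data known, so its count is a description. Beside the markers it holds Hif3a, an inhibitory partner of hypoxia-inducible factors, Cebpd, a transcription factor of the acute phase, Klf9, a zinc finger repressor, Errfi1, an inhibitor of EGF receptor signalling, and Nfkbia, the inhibitor of NF-kB. Hif3a was at 36.1, 67.8 and 66.8 FPKM in Homo replicate 3, Homo replicate 4 and Het replicate 2, against 4.33 to 18.4 in the low side. Cebpd was at 42.5, 92.9 and 52.5 FPKM in these libraries, against 7.88 to 26.0 in the low side. Both genes had their highest low-side value in WT replicate 3. Klf9 differed by 1.47, Errfi1 by 1.57 and Nfkbia by 1.06 on the log2 scale. The metallothionein Mt2A, a metal-binding protein, was at 878 to 2618 FPKM in the high side and at 382 to 792 in the low side.

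Several members of the list did not separate the sides, and 7 of the 33 compared had a negative difference. Sgk1, the kinase that raises sodium channel activity in the distal nephron, ranged from 35.1 to 92.5 FPKM in the high side and from 16.2 to 42.01 in the low side. Dusp1, a MAP kinase phosphatase, ranged from 25.2 to 43.1 FPKM in the high side and from 11.9 to 26.2 in the low side. The receptor gene itself, Nr3c1, was at 17.02 ± 1.001 FPKM in the high side (SD, n = 3) and 17.8 ± 0.888 in the low side (n = 8). The genes of the 11beta-hydroxysteroid dehydrogenases, which interconvert corticosterone and its inactive keto form, lay on opposite sides. Hsd11b1, the form that mainly regenerates the active steroid, was at 3.55 to 6.75 FPKM in the high side and 1.74 to 3.12 in the low side. Hsd11b2, which inactivates it in the distal nephron, was at 32.0 to 65.1 FPKM in the high side and 70.5 to 130 in the low side. Markers of the adrenal gland, which makes corticosterone, summed to 9.22 to 11.3 FPKM in the high side, within the 5.36 to 48.5 FPKM of the low side. The sums cover 13 of the 14 genes written, of which 2 passed the filter and were compared.

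Some genes known to be restrained by insulin were higher in the same libraries and others overlapped. Igfbp1, a secreted binder of insulin-like growth factors, was at 49.7, 159 and 103 FPKM in Homo replicate 3, Homo replicate 4 and Het replicate 2. In the low side Igfbp1 was at 10.4, 7.21, 23.1 and 10.2 FPKM in WT replicates 1 to 4, 11.1 and 9.76 in the Het libraries and 9.99 and 7.88 in the Homo libraries. The lowest high library thus held more than the highest low library, WT replicate 3, and the difference was 3.03 on the log2 scale. The list of FOXO targets and genes of low insulin does not hold Igfbp1. In it 5 of 14 compared genes were higher without overlap and none was lower, where 7.1% of all genes were higher and 8.21% lower. The other 9 overlapped, 4 of the 14 had negative differences, and the median was 0.58. The 5 are Ddit4, an inhibitor of mTORC1, Klf15, a regulator of amino acid breakdown and gluconeogenesis, the transcription factor Foxo3, the insulin receptor Insr, and Sesn1, a sensor of the amino acid pathway to mTORC1. Ddit4 was at 52.7 to 71.2 FPKM in the high side and 10.05 to 17.6 in the low side. Klf15 was at 40.2 to 56.1 FPKM in the high side and 9.99 to 22.7 in the low side. Ddit4 is in this list and in that of glucocorticoid targets, so the lists are not separate measurements. Txnip, a glucose-responsive inhibitor of glucose uptake, overlapped, at 168 to 279 FPKM in the high side and 171 to 258 in the low side.

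Of the gluconeogenesis list, 4 of 11 compared genes were higher without overlap and none was lower, with a median of 0.43. Among all genes 7.1% were higher and 8.21% lower without overlap. G6pc, the catalytic subunit of glucose-6-phosphatase, was at 152.1, 138.02 and 145.8 FPKM in Homo replicate 3, Homo replicate 4 and Het replicate 2, against 39.5 to 67.3 in the low side. Pck1, which makes phosphoenolpyruvate from oxaloacetate, was at 820, 1102 and 769 FPKM in these libraries, against 296 to 648 in the low side. The lowest low-side value of Pck1, 296 FPKM, was that of WT replicate 3, the library nearest to the high side for the glucocorticoid markers. Slc37a4, the transporter of glucose 6-phosphate into the endoplasmic reticulum, was at 101.0 to 108.8 FPKM in the high side and 64.4 to 78.6 in the low side, and Got1, a transaminase, at 92.9 to 183 and 53.0 to 83.0.

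The promoter windows of Igfbp1 and Tsc22d3 are shown because both genes were high together and each holds a letter match to a motif of FOXO or forkhead factors. They are RefSeq GRCr8 windows of the same length as that of Xdh, chr14:86261027-86261326 on the plus strand for Igfbp1 and chrX:109009985-109010284 on the minus strand for Tsc22d3, which has 2 other windows without a match. Capitals mark CAAAACA, an insulin response element, starting at position -121 from the gene start in Igfbp1, and TGTTTAC, the forkhead motif GTAAACA read on the opposite strand, starting at position -162 in Tsc22d3.
Igfbp1: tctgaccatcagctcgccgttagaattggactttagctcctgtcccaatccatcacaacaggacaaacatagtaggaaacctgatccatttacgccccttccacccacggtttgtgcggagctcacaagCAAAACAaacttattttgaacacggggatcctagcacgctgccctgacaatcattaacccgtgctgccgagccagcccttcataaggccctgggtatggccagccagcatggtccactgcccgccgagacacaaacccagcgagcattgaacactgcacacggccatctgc
Tsc22d3: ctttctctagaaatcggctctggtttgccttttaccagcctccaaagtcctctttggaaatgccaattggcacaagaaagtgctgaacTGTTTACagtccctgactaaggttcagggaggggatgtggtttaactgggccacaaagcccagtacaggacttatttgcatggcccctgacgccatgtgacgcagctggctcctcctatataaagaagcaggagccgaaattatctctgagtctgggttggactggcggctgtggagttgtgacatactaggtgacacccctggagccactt

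The 5 motifs searched in these short windows matched in 0% to 22.9% of the higher genes. Of the 120 higher genes, 83 had a window, of the 38 lower genes 21 did, and 27457 genes had a window in all. Both strands were searched. The glucocorticoid receptor palindrome matched in 0 of the 83 and 0 of the 21 genes, against 0.459% of all genes. Its half-site AGAACA matched in 19 of the 83 higher genes (22.9%) and 4 of the 21 lower ones, against 21.6% of all. CAAAACA matched in 6 of the 83 (7.23%) and GTAAACA in 4 (4.82%), each in 0 of the 21, against 6.80% and 4.13% of all. The E-box CACGTG, read by clock and growth factors, matched in 11 of the 83 (13.3%) and 4 of the 21 (19.0%), against 7.08% of all. These shares are descriptions with no test. The half-site can overlap the palindrome in part, while the others were counted by themselves. A match is a description of letters and no match says only that these letters are not in these windows.

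The largest differences outside these lists were in genes of varied function. Tmem252, a transmembrane protein, was at 133, 232 and 221 FPKM in Homo replicate 3, Homo replicate 4 and Het replicate 2. In the low side Tmem252 was at 103 FPKM in WT replicate 3, 77.7 in Het replicate 3 and 23.2 to 36.6 in the other 6 libraries. Tmem140, another transmembrane protein, separated the sides more evenly, at 66.4 to 84.3 FPKM against 13.2 to 23.04. Slc25a48, a mitochondrial carrier, was at 4.92 to 13.6 FPKM against 0.716 to 1.79. Fam46b, a member of a family of poly-A polymerases, was at 9.98 to 16.8 FPKM against 0.486 to 6.77, and Wfdc16 at 7.96 to 14.8 against 0.541 to 3.16. Cp, ceruloplasmin, the copper ferroxidase, was at 32.9 to 35.7 FPKM in the high side and 10.02 to 16.9 in the low side.

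On the log2(FPKM + 1) scale the genes lower in the high side were led by Angptl4, a secreted inhibitor of lipoprotein lipase and a target of both PPARs and the glucocorticoid receptor. It was at 19.1, 3.67 and 4.15 FPKM in Homo replicate 3, Homo replicate 4 and Het replicate 2, against 25.8 to 65.8 in the low side, with WT replicate 3 the lowest of these. Angptl4 thus stood opposite to the other 17 separated members of its list, by -2.45 on the log2 scale. The other genes of the fasting and PPARA list gave 1 higher (Cyp4a8, a fatty acid hydroxylase) and no further lower gene of 21 compared, with a median of -0.08. Among all genes 7.1% were higher and 8.21% lower without overlap. Arrdc4, an arrestin-related adaptor and paralog of Txnip, was at 4.55, 1.66 and 1.32 FPKM in the same high libraries, against 8.83 to 15.4. Atp12a, the non-gastric proton pump, was at 1.48, 0.301 and 0.408 FPKM in these libraries, against 2.18 to 14.9. As a ratio of mean FPKM, high over low, Atp12a was the lower of this pair, at 0.0994 against 0.204 for Angptl4. For Angptl4, Arrdc4 and Atp12a, Homo replicate 3 lay nearest to the low side.

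The neurofilament genes Nefl and Nefm were both lower, Nefl at 4.59 to 6.36 FPKM against 8.12 to 22.1 and Nefm at 4.95 to 6.81 against 9.99 to 20.1. Tubb6, a beta tubulin, was at 15.2 to 21.7 FPKM in the high side and 36.1 to 55.6 in the low side. Apln, the ligand of the apelin receptor, was at 1.96 to 2.72 FPKM against 4.35 to 8.93. Timm8a2, of a family of mitochondrial import chaperones, was at 2.65 to 5.04 FPKM against 8.58 to 19.2.

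**Figure D2:**
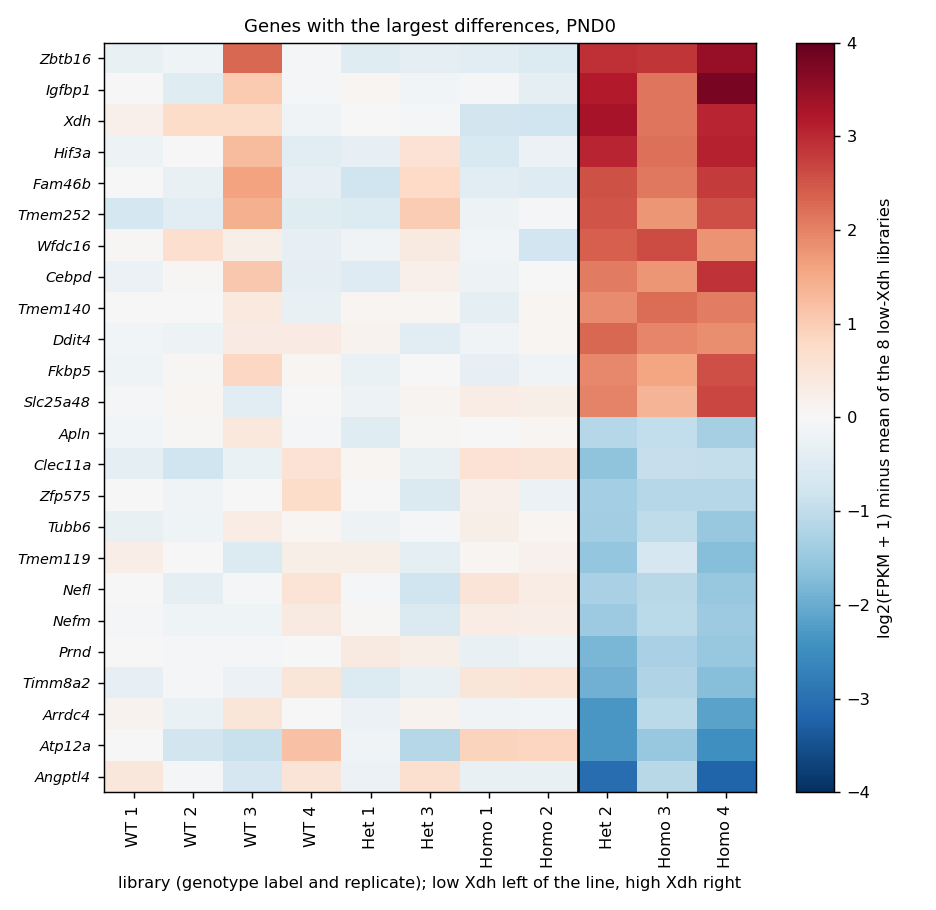
log2(FPKM + 1) minus the mean of the 8 low libraries (colour) for the 12 largest differences in each direction that the naming rule took (rows) in each newborn library (columns), with low Xdh left of the line and high Xdh right. WT replicate 3 is redder than the other low libraries for Zbtb16, Igfbp1, Hif3a, Fam46b, Tmem252 and Cebpd, and Homo replicate 3 is paler than the other high libraries for Angptl4 and Arrdc4.

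Genes of DNA replication and mitosis were lower in the high side. Of 27 cell cycle genes compared, 22 were lower without overlap and none was higher, where 8.21% of all genes were lower and 7.1% higher. All 27 differences were negative, with a median of -0.66. None reached a difference of 1, so none counts among the 38 genes. Mcm5, a subunit of the replicative helicase, was at 13.7, 12.3 and 11.4 FPKM in Homo replicate 3, Homo replicate 4 and Het replicate 2, against 20.9 to 27.7 in the low side. Mki67, the proliferation antigen, was at 10.5 to 14.2 FPKM against 16.2 to 23.9, and Top2a, a topoisomerase of dividing cells, at 20.6 to 24.1 against 28.5 to 47.3. In bulk tissue, fewer cells of a type and less RNA per cell cannot be told apart.

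Nephron markers did not move as 1 block. Of 28 proximal tubule genes, 9 were higher without overlap and none was lower, where 7.1% of all genes were higher and 8.21% lower. The median was only 0.12, however, and 11 differences were negative. Slc5a12, the low-affinity lactate transporter of the proximal tubule, was at 55.2, 61.7 and 69.2 FPKM in Homo replicate 3, Homo replicate 4 and Het replicate 2, against 13.4 to 27.8. Ass1, argininosuccinate synthase, was at 644 to 1002 FPKM against 304 to 425, and Slc4a4, the basolateral sodium bicarbonate cotransporter, at 65.03 to 72.9 against 27.0 to 43.97. Gatm, which makes the precursor of creatine, differed by -0.99 with overlap. With TPM, which gives all libraries 1 equal sum, the proximal tubule list gave 8 higher and 1 lower. In the collecting duct list 4 of 12 genes were higher, among them Aqp2, the vasopressin-regulated water channel, at 284 to 377 FPKM against 131.3 to 202, and Hsd11b2 was the 1 lower gene.

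Genes of the loop of Henle and distal tubule had a median of -0.73 over 9 compared. Cldn16, a claudin of magnesium reabsorption, was at 4.59 to 10.1 FPKM in the high side against 12.8 to 16.3, and Slc12a3, the thiazide-sensitive sodium chloride cotransporter, at 16.6 to 29.4 against 40.6 to 49.6. The other 7 overlapped, where 8.21% of all genes were lower and 7.1% higher without overlap. Of 18 nephron progenitor genes, 16 had a negative difference, but only Wt1 and Osr1 were lower without overlap and Tmem100 was higher. These counts without overlap were near the shares of all genes. Six2, which keeps nephron progenitors undifferentiated, was at 7.60 to 11.5 FPKM against 7.70 to 23.2. In the stromal list 9 of 11 differences were negative, with a median of -0.45. Only 1 gene in each direction was without overlap, also near the shares of all genes. Pdgfra, a growth factor receptor of stromal cells, was higher, at 67.1 to 86.3 FPKM against 35.4 to 42.3. Col1a1, a collagen chain, was lower, at 136 to 182 against 235 to 482.5.

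Of the 12 genes of purine breakdown and salvage compared, Xdh and Mocs1 were higher without overlap, where 7.1% of all genes were higher. Xdh itself set the sides. Mocs1, which acts in molybdenum cofactor synthesis, was at 14.2 to 16.9 FPKM against 12.1 to 14.1. The median was 0.11, with 9 of the 12 differences positive. None of 10 genes of urate and organic anion transport separated the sides. Abcg2, an exporter of urate, was at 23.02 to 23.6 FPKM against 17.2 to 23.5.

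Markers of other cell types that a cortex sample can hold are given as FPKM summed over all genes of a list that have values, compared or not. In the macrophage list 4 of 11 genes compared were higher without overlap, Cd163, C1qb, C1qc and Mrc1, and 0 were lower. Among all genes 7.1% were higher and 8.21% lower without overlap. Of the 11 macrophage differences 7 were positive and 4 negative, with a median of 0.23. The macrophage list summed to 121.7 to 148.01 FPKM in the high side and 99.1 to 124.4 in the low side. Cd163, a haemoglobin scavenger receptor, was at 3.42 to 4.35 FPKM against 0.981 to 1.70. Erythroid genes summed to 2299 to 11402 FPKM against 1553 to 6303, fat tissue genes to 90.6 to 113 against 40.2 to 206, and liver genes to 171 to 195 against 147.7 to 187. Muscle genes summed to 219 to 364 FPKM against 345 to 676, with 1 of 9, Acta2, lower without overlap. Their part in the differences was not tested.

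**Figure D3:**
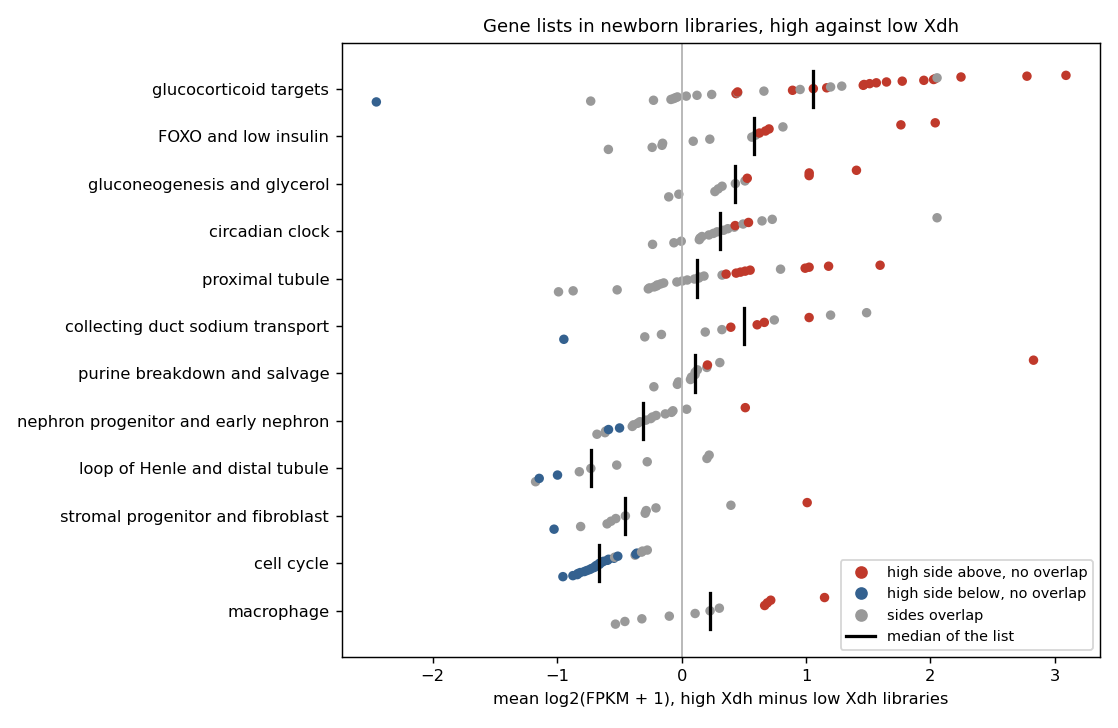
Difference of mean log2(FPKM + 1), high minus low side, for each compared gene (points) of 12 lists (rows); red and blue mark genes whose sides do not overlap, grey the rest, and black bars the medians. The glucocorticoid list has its median at 1.06 with Angptl4 alone far to the left at -2.45, and all points of the cell cycle list lie left of 0.

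Over the 11 libraries the genes most like Xdh by Pearson's r of log2(FPKM + 1) were Fam21c (r = 0.977), Slc4a7 (0.975), Zfyve27 (0.975), Cobll1 (0.973) and Adamtsl2 (0.973). For Fkbp5 r was 0.949, for Tsc22d3 0.911, for Zbtb16 0.910 and for Per1 0.843. The libraries form separate sides, so these values are largely set by the gap between them. Among the 8 low libraries alone r was 0.941 for Adamtsl2, a secreted glycoprotein of the matrix, 0.656 for Fkbp5 and 0.310 for Tsc22d3. Adamtsl2 was at 13.0, 18.8 and 12.7 FPKM in Homo replicate 3, Homo replicate 4 and Het replicate 2 and at 2.08 to 6.13 in the low side, with the lowest values, 2.08 and 2.24, in the Homo libraries. All these values are descriptions over libraries that share the rule.

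The titles of the 3 high libraries carry the numbers 21, 22 and 23. The low side holds 20 and 42 in Het replicates 1 and 3, and 130 or above in the other 6. The labels do not say what the numbers mean. Among the 5 libraries with numbers under 100, 175 genes were higher and 61 lower by the same rule. Among the 4 libraries labelled Homo, 2 on each side, 246 were higher and 177 lower. With fewer libraries, fewer values can overlap, so these counts are not comparable in size with 120 and 38. A part of the litter, the hour of collection or the handling in the differences was not tested.

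Reads per library, recovered from the FPKM, ranged from 14143737 to 16672082 in the high side and from 12686228 to 20895970 in the low side. Mitochondrial reads made up 7.18% to 8.56% in the high side and 5.81% to 7.48% in the low side. Their part in the differences was not tested. Over the 15 pairs of PND0 libraries with the same label, chi-square per degree of freedom was 6.54 to 58.6, so none was a repeat within counting error.

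The 157 genes apart that remain of the 158 without Xdh were then followed in the 33 libraries of PND5, 15 and 21, which the rule did not use. Tests were limma's moderated test on log2(FPKM + 1) with Benjamini-Hochberg adjustment over 16283 genes. They set a difference against a spread pooled within 12 groups over all 44 libraries, newborn ones included. The sides split the newborn Homo and Het labels, so for genes apart this spread can be too wide and calls can be missed. Counts from fits of only the ages compared are given at the end. Animals were taken as independent, though shared litters are not known. Homo against WT at PND5 gave no call among the genes apart or in all genes (0%). At an unadjusted p under 0.05 there were 209 of 16283 genes, with 1 of the higher genes and 0 of the 38 lower ones. At PND15, of the higher genes 12 rose and 7 fell in Homo, and of the 38 lower genes 6 rose and 2 fell, where 9.08% of all genes rose and 7.51% fell. The call count of 27 became 15 without Homo replicate 1 of PND15. At PND21, of the higher genes 23 rose and 21 fell, and of the 38 lower genes 13 rose and 5 fell, where 17.6% of all genes rose and 17.6% fell. The higher genes thus had calls in both directions, with medians of -0.02 at PND15 and -0.02 at PND21.

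Among the genes higher at PND0, the shares that rose and fell in Homo at PND21 were near those of all genes. The pooled spread can hide calls among genes apart more than among all genes, so these shares are not strictly comparable. The genes named here give both directions. Cp rose from 34.9 ± 3.99 FPKM in WT (SD, n = 3) to 230.6 ± 25.01 in Homo (n = 3; log2 difference 2.69, SE 0.32, limma adjusted p = 2.49e-08). Cd163 rose from 0.548 ± 0.337 to 6.43 ± 2.66 FPKM (log2 difference 2.23, adjusted p = 8.61e-08). Slc37a4 fell from 190 ± 14.8 to 94.8 ± 35.2 FPKM (log2 difference -1.07, adjusted p = 1.31e-05), and Gsta2, a glutathione transferase, from 64.8 ± 8.25 to 16.04 ± 7.83 (log2 difference -2.08, adjusted p = 5.47e-07). Each of these groups was without overlap. Angptl4, lower at PND0, rose from 3.35 ± 1.34 FPKM to 28.0 ± 6.07 (log2 difference 2.77, adjusted p = 0.000704), and Tubb6 from 11.1 ± 1.49 to 38.9 ± 7.26 (log2 difference 1.71, adjusted p = 9.94e-05), while Apln fell from 5.89 ± 1.70 to 1.85 ± 0.211 (log2 difference -1.25, adjusted p = 0.000338).

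Fkbp5, Zbtb16, Tsc22d3 and Per1 were not called between Homo and WT at PND21 in the fit of all ages, whose spread includes the newborn sides. Fkbp5 was at 17.5 ± 7.14 FPKM in WT and 31.8 ± 6.22 in Homo (log2 difference 0.89, limma adjusted p = 0.201). Zbtb16 was at 0.960 ± 0.482 FPKM and 2.51 ± 0.877 (log2 difference 0.84, adjusted p = 0.428), and was called in the fit of only the ages compared (limma adjusted p = 0.0191). Per1 was at 37.3 ± 17.5 FPKM in WT and 28.1 ± 14.3 in Homo (log2 difference -0.42, adjusted p = 0.657). Tsc22d3 was at 96.6 ± 35.0 FPKM in WT and 89.9 ± 40.1 in Homo (log2 difference -0.14, adjusted p = 0.846). Of the 33 glucocorticoid targets 11 rose and 3 fell at PND21, with a median of 0.39, where 17.6% of all genes rose and 17.6% fell. Of the 11 gluconeogenesis genes none rose and 9 fell, and of the 28 proximal tubule genes none rose and 22 fell, whereas members of both lists stood higher in the newborn high side. In the same contrast 11 of 11 macrophage genes rose (median 2.58), as did 14 of 16 tubular injury genes (median 1.92, with 1 that fell) and 7 of 10 inflammation genes (median 1.91, with 1 that fell). Their part in the falls was not tested. Among the gluconeogenesis genes, Pck1 (log2 difference -1.82, adjusted p = 0.0246) and G6pc (-1.44, adjusted p = 0.00679) lost their calls without Homo replicate 1 of PND21, at -0.27 and -0.74.

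In WT animals the genes apart moved with age mostly in the direction they had in the high side. From PND5 to PND15, of the higher genes 23 rose and none fell, and of the 38 lower genes 1 rose and 15 fell, where 13% of all genes rose and 12.9% fell. The median change was 0.37 for the higher and -0.66 for the lower genes, against 0.00 for all genes, and the count of 39 calls became 24 without WT replicate 3 of PND5. From PND15 to PND21, 16 of the higher genes rose and none fell, and 1 of the 38 rose and 7 fell, where 9.87% of all genes rose and 7.24% fell. These 24 calls became 13 without WT replicate 2 of PND21. With TPM in place of FPKM, which moved the median of all genes by -0.18 at this step, 11 of the higher genes rose and 16 of the lower genes fell.

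Slc5a12 rose from 30.3 ± 2.36 FPKM at PND5 (n = 3) to 117 ± 7.93 at PND15 (n = 4; log2 change 1.91, SE 0.35, limma adjusted p = 0.000108), so the newborn high side, at 55.2 to 69.2 FPKM, lay between these ages. Slc25a48 rose from 1.75 ± 0.516 to 8.21 ± 1.03 FPKM (log2 change 1.76, adjusted p = 0.00275). Timm8a2 fell from 9.04 ± 1.41 to 1.25 ± 0.431 FPKM (log2 change -2.17, adjusted p = 2.97e-05), and Tubb6 from 42.7 ± 4.43 to 19.0 ± 1.91 (log2 change -1.13, adjusted p = 0.00729). From PND15 to PND21 Hsd11b1 rose from 7.64 ± 1.31 to 32.4 ± 5.79 FPKM (log2 change 1.95, adjusted p = 0.000184) and Adamtsl2 from 5.98 ± 1.03 to 23.9 ± 5.21 (log2 change 1.83, adjusted p = 0.00203).

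Fkbp5 and Zbtb16 were below the newborn high side at every later age in WT. Fkbp5 in WT was at 8.90 ± 1.19 FPKM at PND5 and 6.90 ± 0.194 at PND15 (limma adjusted p = 0.687), and at 17.5 ± 7.14 at PND21 (log2 difference 1.14, adjusted p = 0.109 against PND15, and 0.0492 in the fit of only the ages compared), so the newborn high side, at 49.8 to 99.8 FPKM, was above every WT library of those ages. Zbtb16 in WT did not exceed 1.25 FPKM at any later age. Of the lists, 24 of 28 proximal tubule genes rose and none fell from PND5 to PND15, none of 27 cell cycle genes rose and 12 fell, and of 33 glucocorticoid targets 4 rose and 1 fell, where 13% of all genes rose and 12.9% fell. At PND5 the WT mean was above that of the newborn low side for 56 of the 120 higher genes and 16 of the 38 lower ones.

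**Figure D4:**
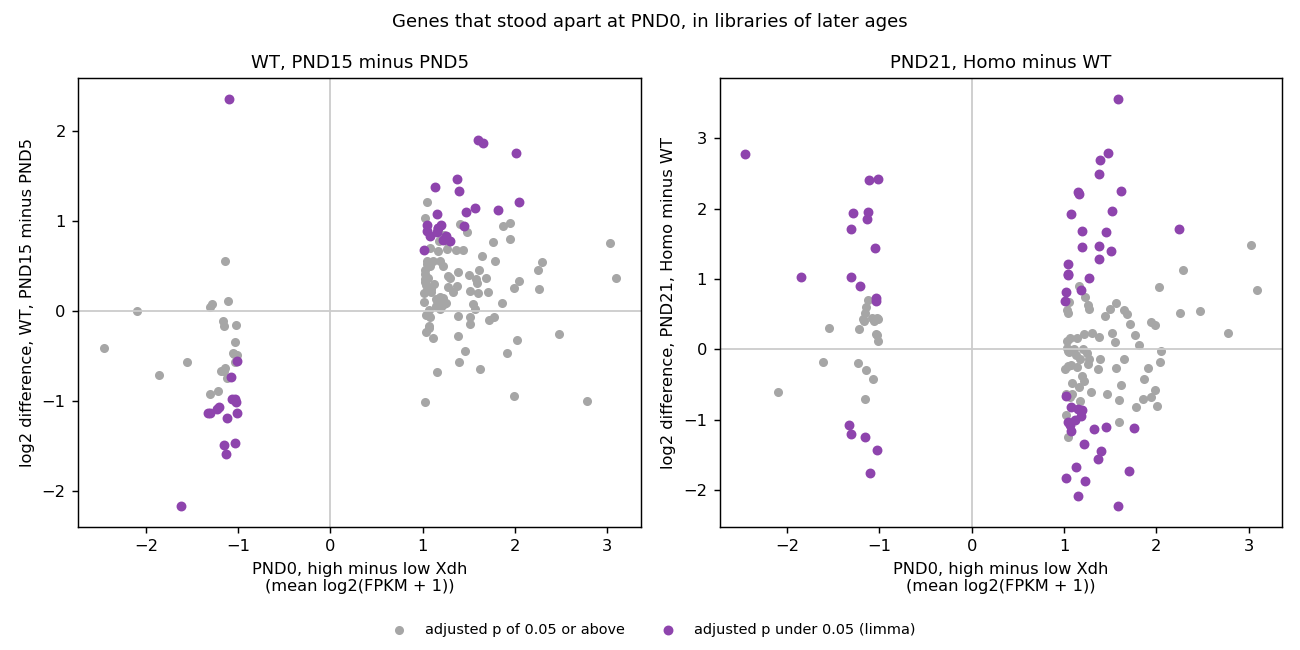
Each point is 1 of the 157 genes apart other than Xdh, with the difference at PND0 (high minus low side, mean log2(FPKM + 1)) on the horizontal axis and its log2 difference in later libraries on the vertical axis, WT PND15 minus PND5 on the left and Homo minus WT at PND21 on the right; purple marks a limma adjusted p under 0.05. On the left no gene higher at PND0 is purple below 0, while on the right purple points lie on both sides of 0.

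Finally, genes were asked whether they vary with Xdh between animals of the same age and genotype in the 33 later libraries, by a slope on the library's log2(Xdh FPKM + 1) within 9 groups. Xdh varied little there, with an SD of 0.30 on the log2 scale within groups, against a difference of 2.83 between the newborn sides. Of 16282 genes, 1 had a positive slope past the adjusted threshold (0.00614%) and 1 a negative one (0.00614%). C7, a complement component of the membrane attack complex, had a slope of 1.10 (SE 0.18, limma adjusted p = 0.0209). It is also 1 of the 120 genes higher at PND0, at 51.9 to 58.1 FPKM against 13.6 to 33.2 in the low side. Fabp5, a fatty acid binding protein, had a slope of -0.48 (SE 0.08, adjusted p = 0.0193), and its newborn sides overlapped. C7 lost its call in 8 and Fabp5 in 4 of 40 alternatives, in both cases without PND15 Homo replicate 3 and without PND5 Homo replicate 3.

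The glucocorticoid markers had positive slopes that did not pass the threshold. The slope was 0.45 for Fkbp5 (SE 0.29, limma adjusted p = 0.581), 0.31 for Tsc22d3 (SE 0.24, adjusted p = 0.651), 0.61 for Per1 (SE 0.35, adjusted p = 0.520) and 0.14 for Zbtb16 (SE 0.25, adjusted p = 0.877). That of Igfbp1 was 0.70 (SE 0.15, adjusted p = 0.0916). Of the genes higher at PND0, Xdh left out, 96 had a positive slope and 23 a negative one. Their median slope was 0.21, against 0.002 for all genes. Of these higher genes 30 had an unadjusted limma p under 0.05, against 1812 of all 16282 genes. Of the 38 lower genes 19 were positive, and 6 had an unadjusted p under 0.05. The genes apart were picked from the same newborn libraries and are not independent, so these counts are descriptions and no shared trend was tested. The number of genes called for a slope, 2, was 155 without PND15 Het replicate 2, 30 without PND21 Homo replicate 1 and 0 without PND15 Homo replicate 3 or PND5 Homo replicate 3.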

How the data were processed

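Poly-A RNA of kidney cortex from 44 male rats was sequenced, in groups taken from the labelled age and genotype. Replicate numbers only name samples. The values deposited are FPKM, genes by libraries in 1 table; the submitters' processing notes list the tools featureCounts 1.5.0-p3, StringTie 1.3.3b, HISAT2 2.0.5 and fastp, giving no roles. The genome build and the strandedness used are not given in the sources used here, so close paralogs and antisense partners may share reads. After multiplication by gene length and 1 factor per library, 100% of values became whole reads within 0.01. That factor was 0.833 to 1.11 times the reads counted over all 44 libraries, so the deposited FPKM carry a further scaling of libraries. Recovered reads ranged from 12686228 to 23329418 per library, and no count model was run on them.

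The sides at PND0 were set by Xdh FPKM (above 10, below 5), and genes with at least 1 FPKM in 3 of the 11 libraries were described by overlap and by the difference of mean log2(FPKM + 1), with no test. For later libraries, limma (version 3.58.1 under R 4.3.3, with statmod 1.5.0; trend and robust) was run on log2(FPKM + 1) with 12 group means over 44 libraries, adjusted p under 0.05; rose, fell and called are used for these alone. The pseudocount of 1 understates the change of low genes. On simulated data the contrast at PND15 recovered 22%, 78%, 100% and 100% of genes changed 1.5-, 2-, 3- and 4-fold among 16283 genes. The slope recovered 10%, 98%, 100% and 100% of those with slopes of 0.5, 1, 1.5 and 2 among 16282 genes. Only genes averaging at least 5 FPKM were changed, and counts were drawn independently with 1 spread for all genes. These shares therefore do not hold for genes that vary more between animals.

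The members, the 35 gene lists (523 entries, 505 in the table, 423 compared) and the rule for genes named were chosen with earlier results of these data known. The rule took the markers, the 12 largest differences per direction among genes averaging 5 FPKM or more in the higher side, up to 5 members per list without overlap, the 5 genes most like Xdh and genes called for the slope. Nr3c1, Sgk1, Dusp1, Txnip, Gatm, Six2, Abcg2, Mki67, Top2a, Klf9 and Errfi1 fall outside it and were named after their values were seen. The alternatives tried were TPM (equal summed FPKM), median ratios, a pseudocount of 0.1, other filters on low values (none, or an average of 5 FPKM), subsets of libraries and each library left out in turn.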

Additional observations from a re-analysis of the deposited data

Results flagged for a closer look

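In the 26 genes named for size or as markers, the highest and lowest library of each PND0 group of 4 was compared with the rest, 52 groups in all. In 6 of them 1 library stood apart from the other 3 by more than Dixon's 95% critical value. Chance flags about 1 in 20 independent groups. These genes were picked from the same libraries and are not independent, so that rate does not apply to the 6. WT replicate 3 accounts for 5. It was at 39.7 FPKM for Per1, where the next WT library was at 9.66, and at 6.58 for Zbtb16, where the next was at 0.473. It was at 18.4 FPKM for Hif3a (next 7.04), 6.77 for Fam46b (next 1.52) and 103 for Tmem252 (next 27.3). All 5 genes were higher in the high side too, and none of the 5 values comes with high Xdh, which was at 3.78 FPKM in this library. The sixth is WT replicate 4 for Zfp575, a zinc finger gene lower in the high side, at 18.1 FPKM where the next WT library was at 10.6.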

How the results depend on the processing

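No paired analysis was possible because replicate numbers were given in accession order and pair no animals. All 158 genes apart kept their direction in every alternative that could hold them. They also stayed without overlap, except that 154 did with TPM and 157 with median ratios, and 44 are not among genes with a mean of at least 5 FPKM; leaving libraries out cannot create overlap. By size, counts moved to 92 lower with a pseudocount of 0.1, 1042 higher and 1205 lower with no overlap alone, 336 and 283 at 1.5-fold, 61 lower among title numbers under 100, and 246 and 177 among libraries labelled Homo. Leaving out each library gave 120 to 206 higher and 34 to 70 lower.

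Calls among genes apart ranged over libraries left out from 15 to 33 for Homo at PND15, 44 to 61 at PND21, 24 to 35 for WT PND15 and 13 to 21 for WT PND21, with 0 at PND5 throughout. Fits of only the ages compared gave 79 for WT PND15 (39 over all ages) and 45 for WT PND21 (24). The slope, with 2 genes called, gave 0 to 155 over libraries left out, 106 with TPM, 1 without a filter, 0 in PND15 and PND21 alone and 14 without the 2 libraries farthest in Xdh. The slope of Zbtb16 reversed to -0.071 without PND15 Het replicate 2, with 0.24 the highest over libraries left out. Causes were not tested. With 3 libraries in the high side, 1 library decides whether sides overlap.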
